A study of Mus musculus with 10 samples.

Results

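The contractile programme of smooth muscle was followed as a set of 39 genes in mouse Wolffian ducts grown with an activator or an inhibitor of hedgehog signalling. A gene was represented by its probe set on the array, under the platform's gene symbol, and 38 of the 39 genes were measured under a name, each by 1 probe set, out of 19505 named genes and 22206 probe sets. Mkl2, a myocardin-related cofactor of SRF, was matched through its current symbol Mrtfb, and Pdlim7 is not analysed here. The members were divided into 24 genes of the contractile apparatus that are restricted to or enriched in muscle, 12 widely expressed cytoskeletal genes (11 measured) and 3 transcriptional regulators. The division was made from textbook knowledge of where the genes are expressed, and 10 genes that could be placed either way were left out of both classes as an alternative.

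Wolffian ducts, the embryonic tubes that form the epididymis and vas deferens, came from mice at 16.5 days of gestation and were kept at an air-liquid interface for 72 h. The groups were 3 vehicle cultures in culture medium, 4 cultures with 0.5 µM SAG, which activates Smoothened, and 3 cultures with 25 µM cyclopamine, which inhibits it. The sample titles call the tissue pronephros, the vehicle is given as medium without mention of a solvent, and the design text calls the samples biological replicates. The labels name neither the strain nor the number of ducts in a culture.

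Smooth muscle contracts when calcium and calmodulin activate myosin light chain kinase, which phosphorylates the regulatory light chain of myosin, and a myosin phosphatase reverses this. Thin filaments of smooth muscle actin carry tropomyosin, caldesmon, calponin and transgelin, and they are anchored in dense bodies and at the membrane. Many genes of this apparatus are switched on by SRF, which binds a short DNA motif called the CArG box, together with myocardin or its relatives. In the epididymis and vas deferens, smooth muscle forms from the mesenchyme around the duct epithelium.

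Values are log2 signals as deposited, so a difference of 1 is a doubling of signal, and array medians lay between 7.55 and 7.70. The hedgehog targets Gli1, Ptch1 and Hhip were called higher with SAG (log2 differences of 1.51 to 4.55) and lower with cyclopamine (-6.93 to -4.12); the call of Gli1 with SAG ended in 7 of 10 left-out arrays (limma adjusted p 0.0530 to 0.204). On the second principal component, cyclopamine replicate 2 (-51.7) lay apart from the other cyclopamine arrays (13.0 and 13.6). Member calls that changed without it are given with the member. Acta2, Myh11, Cnn1 and Tagln were taken as smooth muscle markers, though Acta2 and Tagln are among the genes that could be placed either way. All of them were above the lower quartile of probe set means (5.19) in vehicle cultures. So were the epithelial markers Cdh1 and Epcam (14.37 and 12.98). Of 12 striated muscle markers, the vehicle means of Myod1 (3.89), Myf5 (3.76), Myh7 (3.93), Myh3 (4.47), Tnni1 (4.61) and Ttn (4.80) lay below that quartile, and those of Ckm (8.40), Actc1 (6.81), Tnnt2 (6.41), Acta1 (6.14), Tnnt3 (5.97) and Myog (5.52) above it. A gene passed when its limma p-value, adjusted by Benjamini-Hochberg over all 22206 probe sets, was below 0.05.

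With cyclopamine, genes of the contractile apparatus fell, among them the smooth muscle actins, calponin and myosin heavy chain; whether the contractile and the widely expressed class differ was not tested. Of 38 members, 21 passed against vehicle, as did 5.12% of all probe sets. Among them 20 fell, where 2.95% of all probe sets fell, 1 rose, where 2.17% of all probe sets rose, and the other 17 members did not pass. Among contractile members 13 of 24 fell and 0 rose, with a median log2 difference of -1.06 and a range of -5.54 to -0.08. Among widely expressed members 5 of 11 fell and 1 rose, with a median of -0.52 and a range of -1.70 to 0.93. Some contractile members were dim already with vehicle, where a fall may be understated. Their vehicle means were 3.75 (Pln), 5.84 (Ppp1r12b), 5.96 (Casq2), 6.05 (Synm), 6.20 (Ldb3) and 6.29 (Jph2). The lowest vehicle mean of a widely expressed member was 11.59 (Pdlim5). The median over all 19505 named genes was 0.015. With the 10 genes that could be placed either way left out, the medians were -0.87 for contractile and -0.52 for widely expressed members.

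**Figure D1:**
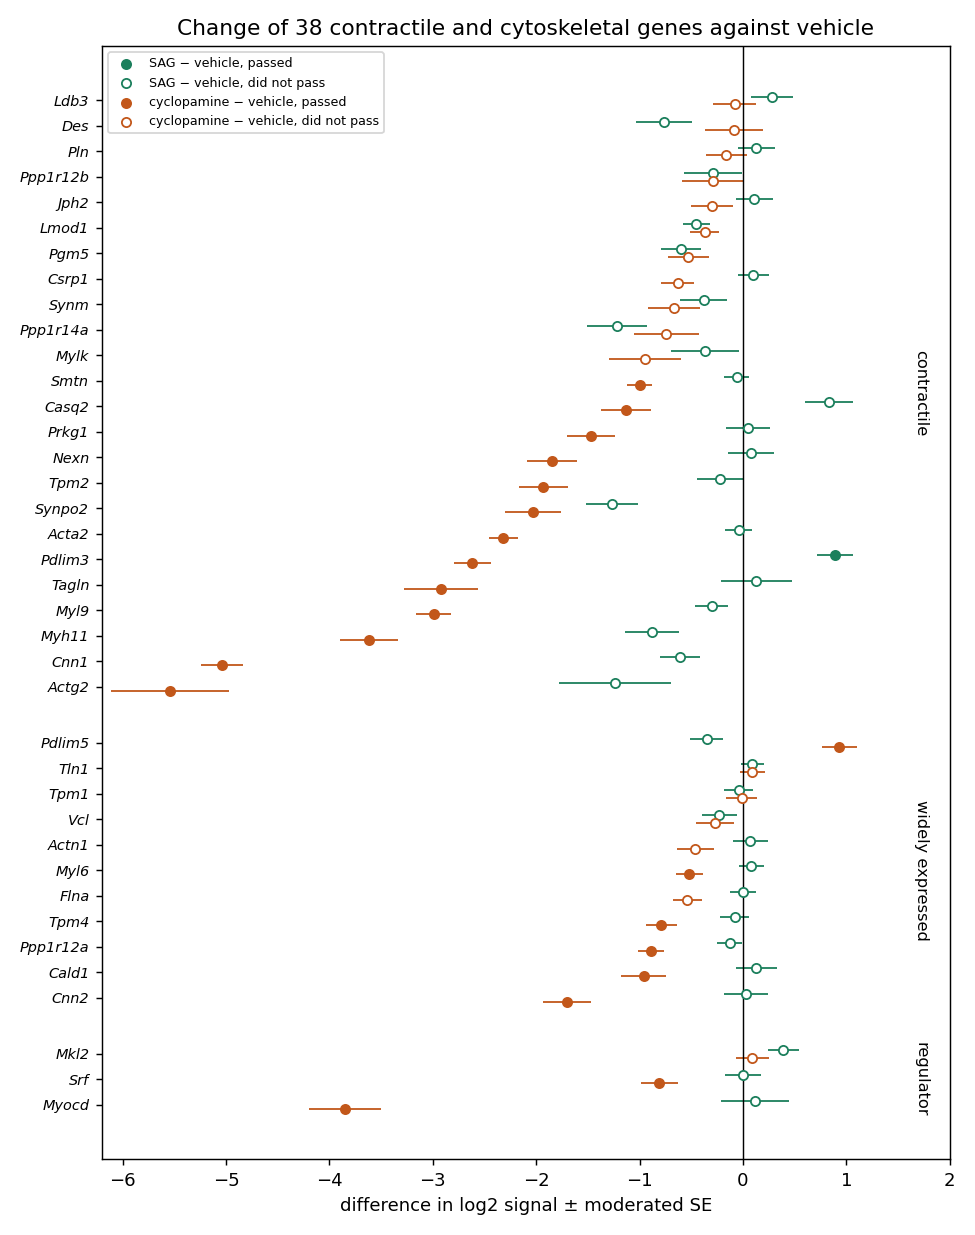
Log2 difference against vehicle of the 38 measured members (x axis, with moderated SE) for SAG (green) and cyclopamine (orange), ordered within each class by the cyclopamine difference. Filled points passed the test; the cyclopamine points spread from 0.93 down to -5.54, while a single green point, that of Pdlim3, is filled.

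The shift was present on each of the 3 cyclopamine arrays. The median deviation of contractile members from their vehicle means was -1.36, -1.16 and -1.27 on cyclopamine replicates 1, 2 and 3, against -0.01, 0.01 and 0.11 on the vehicle arrays. For widely expressed members these medians were -0.60, -0.51 and -0.44, against -0.13, 0.09 and 0.06. The groups' arrays did not overlap for 27 of 38 members, where they did not overlap for 23.1% of all probe sets. In a sample of whole tissue, fewer cells of a type and less RNA per cell cannot be told apart. In the same cultures the median difference was -0.76 over 4 measured fibroblast markers, -0.89 over 6 pericyte markers and -1.44 over 5 endothelial markers. All markers of these 3 lists were negative. The endothelial fall was not present on each array. The median deviation of that list was 0.02, -1.21 and -1.43 on cyclopamine replicates 1, 2 and 3. On the vehicle arrays it was 0.36, 0.09 and -0.72. The median difference was 1.15 over 6 duct epithelium markers, of which 5 were positive and 1, Lhx1, was negative. The part of these cell types in the result was not tested.

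**Figure D2:**
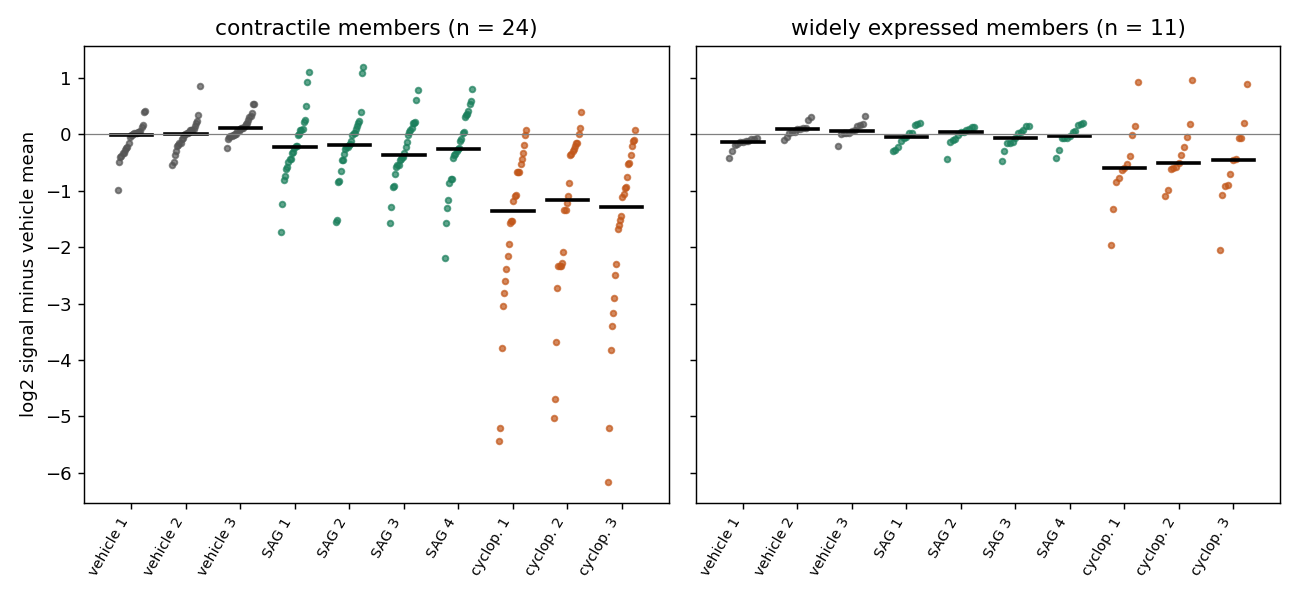
Log2 signal minus the gene's vehicle mean (y axis) for each contractile member (left, n = 24) and each widely expressed member (right, n = 11) on each of the 10 arrays (x axis; cyclop., cyclopamine). Black bars are class medians, which lie between -1.36 and -1.16 for contractile members on the cyclopamine arrays and between -0.60 and -0.44 for widely expressed ones.

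Of the 11 genes of the thin filament, 9 fell with cyclopamine and 2, Lmod1 and Tpm1, did not pass. Acta2, smooth muscle alpha actin, had log2 signals of 16.99, 17.12 and 17.02 with vehicle, 16.72, 17.18, 17.02 and 17.08 with SAG, and 14.66, 14.76 and 14.75 with cyclopamine. The vehicle and SAG arrays overlapped and all cyclopamine arrays were lower (-2.32 ± 0.14 on the log2 scale, ± giving the moderated SE of the difference throughout, 4.99-fold lower, limma adjusted p = 1.36e-05). Actg2, the gamma actin of enteric smooth muscle, had signals of 11.23, 13.07 and 12.34 with vehicle, 12.29, 10.67, 10.93 and 10.02 with SAG, and 6.78, 7.19 and 6.06 with cyclopamine. It varied more within each group than Acta2 did, and with cyclopamine it had the largest fall of any member (-5.54 ± 0.57, 46.5-fold lower). Actins are close copies of each other, so probes for one may take up RNA of another.

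Cnn1, the smooth muscle calponin, had the smallest p of the thin filament genes in both comparisons with cyclopamine cultures. Its signals were 11.55, 12.02 and 12.09 with vehicle, 11.15, 11.42, 11.47 and 11.08 with SAG, and 6.68, 7.18 and 6.67 with cyclopamine. The 3 groups did not overlap, and the fall with cyclopamine was 32.9-fold (-5.04 ± 0.20, limma adjusted p = 1.56e-06). Tagln, transgelin or SM22 alpha, had signals of 13.88, 14.28 and 14.63 with vehicle, 14.36, 14.14, 14.46 and 14.62 with SAG, and 11.44, 12.17 and 10.43 with cyclopamine. The SAG arrays lay within the range of the vehicle arrays, and the fall with cyclopamine was 7.56-fold (-2.92 ± 0.36).

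Smaller falls were those of Smtn, smoothelin (-1.0 ± 0.12), and Cald1, caldesmon (-0.96 ± 0.22, limma adjusted p = 0.0298). The Cald1 call was lost when vehicle replicate 2 or 3, or else cyclopamine replicate 1 or 3, was left out (limma adjusted p 0.0824 to 0.0982) and with the 2 groups alone in the fit (0.105). Lmod1, leiomodin, which seeds actin filaments, had signals of 7.05, 7.04 and 6.92 with vehicle, 6.38, 6.74, 6.45 and 6.63 with SAG, and 6.48, 6.79 and 6.63 with cyclopamine. Both treated groups lay below the vehicle arrays without overlap, with log2 differences of -0.45 for SAG and -0.37 for cyclopamine, and neither difference passed (limma adjusted p = 0.195 and 0.187).

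The tropomyosin genes, whose products lie along the actin filament, did not move alike. Tpm2, the muscle-enriched form, had signals of 12.76, 13.05 and 13.13 with vehicle, 12.65, 12.75, 12.76 and 12.87 with SAG, and 11.04, 11.63 and 10.49 with cyclopamine (-1.93 ± 0.24, 3.80-fold lower). Tpm4 had signals of 14.48, 14.69 and 14.60 with vehicle, 14.32, 14.72, 14.44 and 14.56 with SAG, and 13.74, 14.00 and 13.67 with cyclopamine (-0.79 ± 0.15), a call that ended without vehicle replicate 2 (limma adjusted p = 0.0569) or cyclopamine replicate 3 (0.0510). Tpm1 had signals of 15.76, 15.93 and 15.97 with vehicle, 15.77, 15.93, 15.74 and 15.95 with SAG, and 15.87, 15.66 and 16.10 with cyclopamine. Its 3 groups overlapped, with a difference of -0.01 ± 0.15 for cyclopamine. The array gives 1 value a gene, so muscle and non-muscle transcripts of Tpm1 and Cald1 are not separated.

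Of 8 genes for myosin and its phosphorylation, 5 fell with cyclopamine and 3 did not pass. Myh11, the smooth muscle myosin heavy chain, had signals of 11.51, 12.20 and 12.30 with vehicle, 10.77, 11.54, 11.46 and 10.70 with SAG, and 8.21, 8.32 and 8.60 with cyclopamine. The fall with cyclopamine was 12.3-fold (-3.62 ± 0.28), and on 3 of 4 SAG arrays the signal lay below all vehicle arrays without passing (-0.88 ± 0.26, limma adjusted p = 0.195). Myl9, the regulatory light chain that the kinase phosphorylates, had signals of 14.37, 14.86 and 14.63 with vehicle, 14.19, 14.45, 14.29 and 14.37 with SAG, and 11.57, 11.89 and 11.45 with cyclopamine (-2.99 ± 0.17, 7.92-fold lower). Myl6, the essential light chain that muscle and non-muscle myosins share, had signals of 13.77, 14.02 and 13.94 with vehicle, 13.86, 13.99, 13.99 and 14.10 with SAG, and 13.39, 13.30 and 13.48 with cyclopamine. Its fall was 1.43-fold (-0.52 ± 0.13, limma adjusted p = 0.0446), and the call ended with any single array but SAG replicate 1 left out (0.0543 to 0.151), with each array centred on its median (0.0667) and with the 2 groups alone in the fit (0.119).

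The enzymes that set light chain phosphorylation gave mixed values. Mylk, the myosin light chain kinase, had signals of 14.20, 14.44 and 14.42 with vehicle, 13.93, 14.14, 13.92 and 13.94 with SAG, and 12.83, 14.47 and 12.91 with cyclopamine. Cyclopamine replicate 2 lay above every vehicle array and the other cyclopamine arrays below all of them. The difference was -0.95 ± 0.35 and did not pass (limma adjusted p = 0.164), and without cyclopamine replicate 2 it was -1.48 (limma adjusted p = 0.000503). Ppp1r12a, the widely expressed targeting subunit of myosin phosphatase, fell from 13.58, 13.79 and 13.73 with vehicle to 12.92, 12.72 and 12.80 with cyclopamine (-0.89 ± 0.13), with 13.40, 13.62, 13.64 and 13.63 with SAG.

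Ppp1r12b, its relative in muscle, had signals of 5.51, 5.64 and 6.38 with vehicle, 6.09, 5.19, 5.38 and 5.54 with SAG, and 5.91, 5.68 and 5.09 with cyclopamine, and its groups overlapped. Ppp1r14a, or CPI-17, an inhibitor of the phosphatase, had signals of 12.30, 12.12 and 12.39 with vehicle, 10.53, 11.42, 11.56 and 10.69 with SAG, and 11.17, 12.11 and 11.31 with cyclopamine. All treated arrays lay below the vehicle arrays, with log2 differences of -1.22 ± 0.29 for SAG and -0.74 ± 0.31 for cyclopamine, and neither difference passed (limma adjusted p = 0.105 and 0.226). Without cyclopamine replicate 2, the SAG difference passed (limma adjusted p = 0.0417). Prkg1, the cGMP-dependent kinase that mediates relaxation, fell with cyclopamine (-1.47 ± 0.23).

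**Figure D3:**
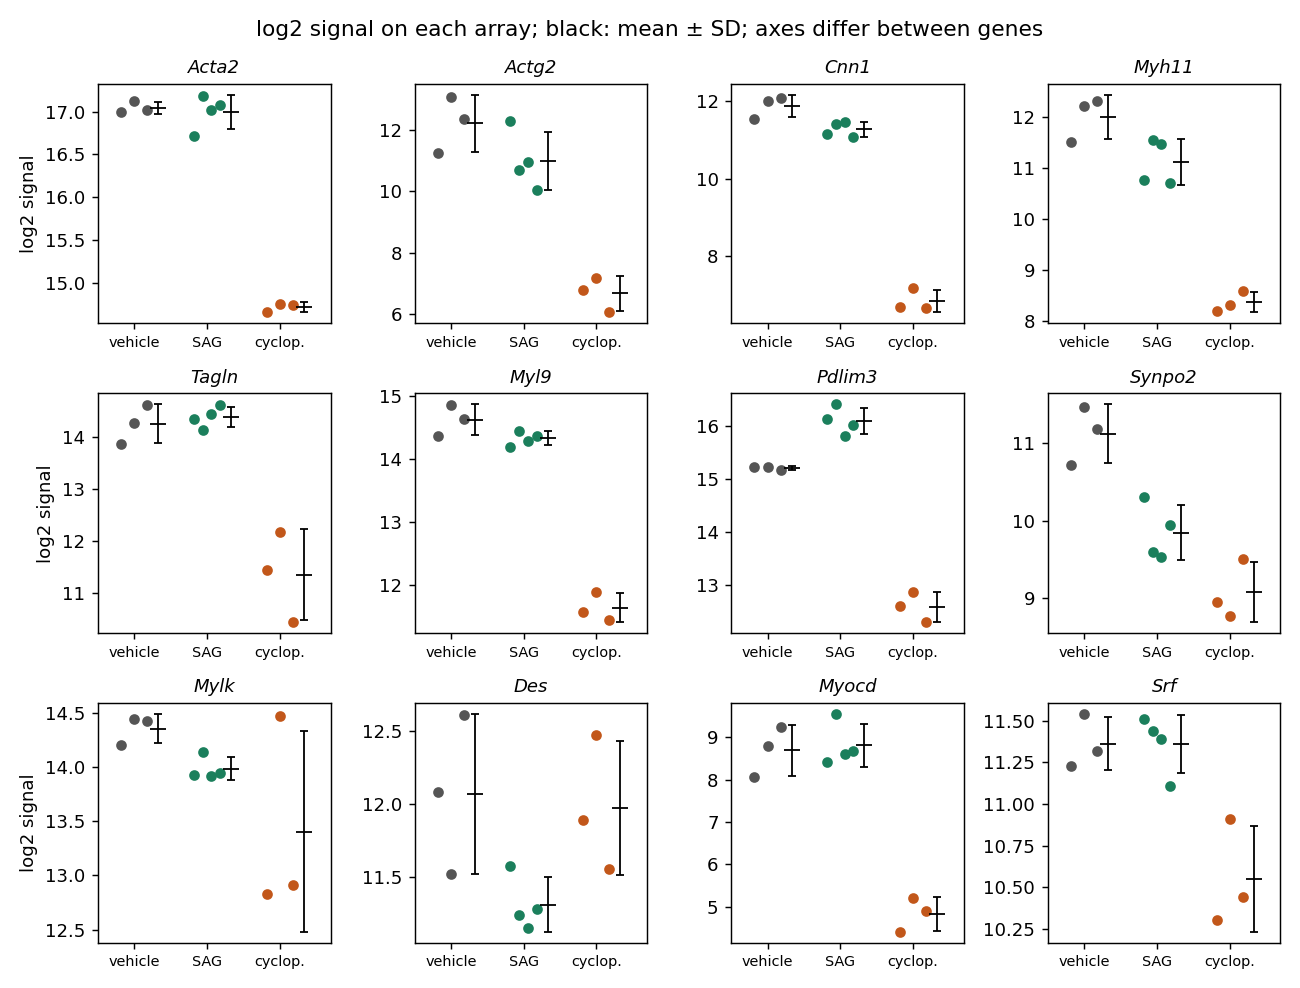
Log2 signal (y axis, scaled per gene) of 12 members on each array, by group (vehicle n = 3, SAG n = 4, cyclopamine n = 3; cyclop., cyclopamine), with mean and SD in black. Cyclopamine arrays lie below all others for 10 of these genes, among them Acta2, Cnn1 and Myocd; for Mylk a single cyclopamine array is at 14.47, and Des shows no separation of cyclopamine from vehicle.

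Of 9 measured genes of dense bodies, PDZ-LIM proteins and intermediate filaments, 3 fell, 1 rose and 5 did not pass with cyclopamine. Pdlim3, an actin-associated PDZ-LIM protein, was the single member that passed in both directions. Its signals were 15.23, 15.22 and 15.16 with vehicle, 16.13, 16.40, 15.81 and 16.01 with SAG, and 12.60, 12.86 and 12.30 with cyclopamine. The 3 groups did not overlap. The fall with cyclopamine was 6.13-fold (-2.62 ± 0.18, limma adjusted p = 4.15e-05), and the rise with SAG 1.85-fold (0.89 ± 0.17, limma adjusted p = 0.0458).

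Pdlim5, a related and widely expressed PDZ-LIM gene, was the single member that rose with cyclopamine. Its signals were 11.50, 11.90 and 11.38 with vehicle, 11.53, 11.15, 11.12 and 11.17 with SAG, and 12.52, 12.56 and 12.48 with cyclopamine. All cyclopamine arrays were above all others, and the rise was 1.90-fold (0.93 ± 0.17, limma adjusted p = 0.0114). That call ended without vehicle replicate 1 (limma adjusted p = 0.0524).

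Synpo2, myopodin, an actin-bundling protein of dense bodies, had signals of 10.71, 11.46 and 11.17 with vehicle, 10.30, 9.60, 9.53 and 9.94 with SAG, and 8.96, 8.77 and 9.51 with cyclopamine. All arrays of both treatments lay below vehicle, and the fall with cyclopamine was 4.09-fold (-2.03 ± 0.27). Nexn, nexilin, fell with cyclopamine (-1.85 ± 0.24). Des, desmin, the intermediate filament of muscle, had signals of 12.08, 11.52 and 12.61 with vehicle, 11.58, 11.24, 11.15 and 11.28 with SAG, and 11.89, 12.47 and 11.56 with cyclopamine. Its cyclopamine arrays overlapped the vehicle arrays, with a difference of -0.09 ± 0.28. Synm, synemin (-0.67 ± 0.25), Ldb3 (-0.08 ± 0.21) and Pgm5, a phosphoglucomutase relative found at adhesions (-0.53 ± 0.20), did not pass. Csrp1, a LIM protein of smooth muscle, did not pass either (-0.63 ± 0.16, limma adjusted p = 0.0520), but did without cyclopamine replicate 2 (0.0115), as did Synm without cyclopamine replicate 3 (0.0397).

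Calcium handling was represented by 3 genes at low signal. Casq2, a calcium-binding protein of the sarcoplasmic reticulum, had signals of 6.35, 5.47 and 6.05 with vehicle, 7.06, 7.05, 6.74 and 6.31 with SAG, and 4.77, 4.86 and 4.85 with cyclopamine. The cyclopamine arrays lay below all others (-1.13 ± 0.24, limma adjusted p = 0.0258) and 3 of 4 SAG arrays above all vehicle arrays (0.83 ± 0.23, limma adjusted p = 0.170). The cyclopamine mean (4.83) was under that lower quartile of all probe sets (5.19), where array signals understate differences, and the call was lost when vehicle replicate 1 or 3, or else cyclopamine replicate 1 or 3, was left out (limma adjusted p 0.0665 to 0.0970). Pln, phospholamban, was below that quartile in every group (means of 3.59 to 3.87) and Jph2, junctophilin, did not pass (-0.30 ± 0.20).

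None of the 4 genes of adhesion and filament cross-linking passed with cyclopamine, by limma, where 2 had an unadjusted p under 0.05. Flna, filamin A, had signals of 16.39, 16.58 and 16.71 with vehicle, 16.74, 16.46, 16.42 and 16.60 with SAG, and 15.96, 15.98 and 16.11 with cyclopamine. The cyclopamine arrays lay below the others by a difference that did not pass (-0.54 ± 0.14, limma adjusted p = 0.0524). Vcl, vinculin, had signals of 12.33, 13.00 and 12.91 with vehicle, 12.53, 12.61, 12.46 and 12.48 with SAG, and 12.37, 12.39 and 12.68 with cyclopamine, and its groups overlapped. Actn1, alpha-actinin 1, was at -0.46 ± 0.18 and passed without cyclopamine replicate 2 (limma adjusted p = 0.0263), and Tln1, talin 1, was at 0.09 ± 0.12.

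The regulators differed from each other. Myocd, myocardin, the muscle-restricted partner of SRF, had signals of 8.05, 8.79 and 9.23 with vehicle, 8.41, 9.54, 8.60 and 8.67 with SAG, and 4.41, 5.20 and 4.91 with cyclopamine. Vehicle and SAG arrays overlapped, and the fall with cyclopamine was 14.4-fold (-3.85 ± 0.35, limma adjusted p = 0.000279), to a mean of 4.84. That mean is under the lower quartile of 5.19, where array signals understate differences, so the fold may be larger than measured. Srf had signals of 11.23, 11.54 and 11.32 with vehicle, 11.51, 11.44, 11.39 and 11.11 with SAG, and 10.30, 10.91 and 10.44 with cyclopamine. It fell 1.76-fold with cyclopamine (-0.81 ± 0.18, limma adjusted p = 0.0304), a call that ended without any 1 of the 3 vehicle arrays or cyclopamine replicate 1 or 3 (0.0683 to 0.110) and with the 2 groups alone in the fit (0.0869). Mkl2, which carries actin signals to SRF in many cell types, had signals of 13.05, 13.33 and 13.08 with vehicle, 13.40, 13.74, 13.71 and 13.30 with SAG, and 13.32, 13.10 and 13.29 with cyclopamine. It did not pass against vehicle with either compound (0.39 ± 0.15 and 0.09 ± 0.16).

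Promoter sequences were searched because many genes of the contractile apparatus are known as targets of SRF. RefSeq start sites of GRCm38.p6 were available for 34 of the 39 genes, and not for Actg2, Tagln, Myh11, Nexn and Myocd. The 250 bases before a start held an exact CArG box (CC, then 6 letters of A or T, then GG, the same on both strands) for 6 of these 34 genes, 17.6%, against 1.62% of 27025 genes in the table. With cyclopamine, 4 of the 6 fell (Cnn2, Myl9, Myl6 and Srf) and 2 did not pass (Ldb3 and Vcl), and of the 27 measured genes with a start but no box, 11 fell. The median log2 difference was -0.67 with and -0.67 without a box, and the calls of Myl6 and Srf ended in 9 and 5 of the 10 left-out arrays. The motif CCACCCA, the core of the GLI binding site, was held on either strand by 5 of 34 genes (14.7%), against 9.29% of all. A match is a run of letters and not a measured binding site. Boxes that differ by a letter or lie outside the 250 bases were not searched for, so a gene without a match may hold one. The members were chosen as genes of the contractile apparatus, so their share of boxes is no result of the treatments. The stretches around the boxes are shown from 5′ to 3′ on the strand of the gene, with the box in capitals, so that the promoters of members that fell can be set beside those of members that did not pass. They lie at chr10:79988499-79988598 (+) for Cnn2, chr2:156775258-156775357 (+) for Myl9, chr10:128493040-128493069 (-) for Myl6, chr17:46556170-46556289 (-) for Srf, chr14:34588682-34588761 (-) for Ldb3 and chr14:20929148-20929225 (+) for Vcl.
Cnn2: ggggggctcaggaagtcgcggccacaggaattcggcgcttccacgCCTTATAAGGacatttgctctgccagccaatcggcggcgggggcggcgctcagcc
Myl9: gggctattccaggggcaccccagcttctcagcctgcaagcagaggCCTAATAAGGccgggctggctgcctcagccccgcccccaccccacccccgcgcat
Myl6: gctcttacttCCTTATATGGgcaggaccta
Srf: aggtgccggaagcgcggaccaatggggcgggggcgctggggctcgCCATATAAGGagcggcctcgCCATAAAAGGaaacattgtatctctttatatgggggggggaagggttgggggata
Ldb3: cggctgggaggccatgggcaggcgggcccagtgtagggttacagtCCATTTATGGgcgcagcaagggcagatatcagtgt
Vcl: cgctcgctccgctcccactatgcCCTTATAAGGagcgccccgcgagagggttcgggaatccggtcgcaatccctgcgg
The Srf stretch holds 2 boxes, which begin at positions -82 and -62 from the start, and the others hold 1 each. The box begins at -56 in Cnn2, -161 in Myl9, -50 in Myl6, -35 in Ldb3 and -227 in Vcl. The Cnn2 and Vcl boxes have the same letters.

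Related genes within the set were compared on the same array, in most pairs a contractile with a widely expressed form and, for Actg2 and Acta2, 2 contractile genes. The log2 difference Cnn1 minus Cnn2 was -1.87, -1.71 and -1.59 with vehicle, -2.50, -2.30, -2.17 and -2.46 with SAG, and -4.95, -5.34 and -4.88 with cyclopamine. Cnn2, the calponin of many cell types, itself had signals of 13.42, 13.73 and 13.67 with vehicle, 13.64, 13.71, 13.63 and 13.54 with SAG, and 11.64, 12.52 and 11.56 with cyclopamine (-1.70 ± 0.23). The difference was lower on every cyclopamine array than on any vehicle array, and its mean dropped by 3.33 (exact permutation test p = 0.10, the smallest that 3 against 3 arrays can give). The difference Myl9 minus Myl6 dropped by 2.47, Tpm2 minus Tpm1 dropped by 1.92, Tpm2 minus Tpm4 dropped by 1.14 and Actg2 minus Acta2 dropped by 3.22, in each case without overlap between the cyclopamine and vehicle arrays and with the same exact p of 0.10. Ppp1r12b minus Ppp1r12a was higher by 0.60 with overlap (exact permutation test p = 0.20). Ppp1r12b was dim in every group (means of 5.55 to 5.84, near the lower quartile of 5.19), so a fall of it may be understated in this pair. Between SAG and vehicle, where 4 against 3 arrays can reach 0.0571, Cnn1 minus Cnn2 (-0.63) and Myl9 minus Myl6 (-0.37) did not overlap and had that p. Over the 18 tests of 6 pairs in 3 comparisons, two-sided, the lowest adjusted p was 0.147 and none passed. With these numbers of arrays no p under 0.05 was possible, so the tests cannot decide whether the differences changed.

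**Figure D4:**
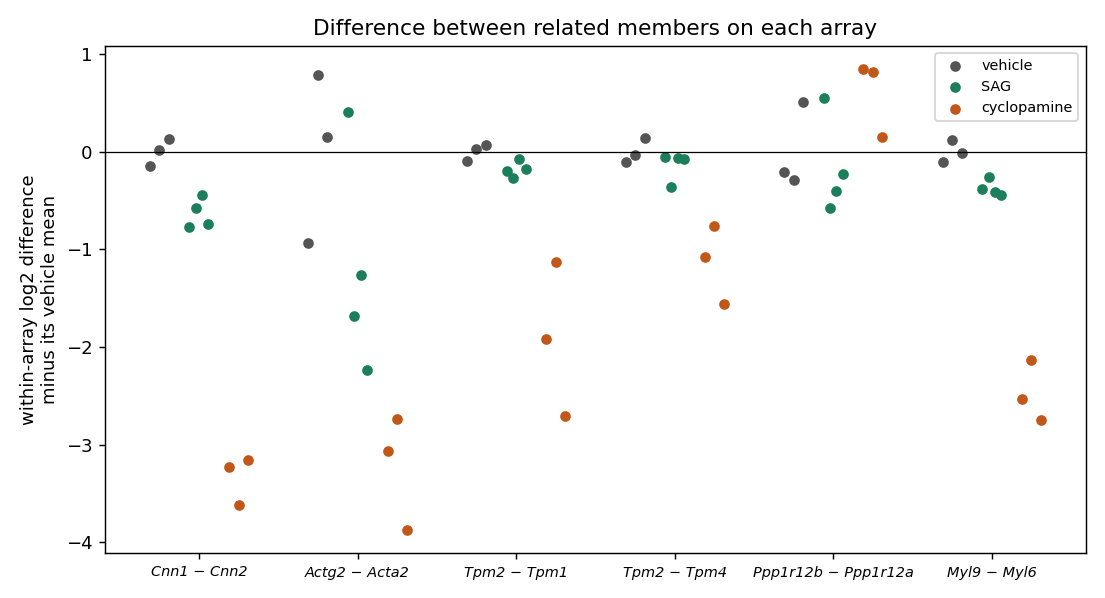
Within-array log2 difference between 2 related members, minus its mean over the vehicle arrays (y axis), for 6 pairs (x axis) on the vehicle (grey, n = 3), SAG (green, n = 4) and cyclopamine (orange, n = 3) arrays. Cyclopamine points lie below all others for 5 pairs and not for Ppp1r12b and Ppp1r12a.

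With SAG a single member passed the test against vehicle. Of 38 members 1 passed, as did 0.730% of all probe sets: 1 rose, where 0.450% of all probe sets rose, and 0 fell by limma, where 0.279% of all probe sets fell. At an unadjusted p under 0.05, 3 members were higher and 9 lower, and 1165 and 1224 of the 22206 probe sets were. The median log2 difference was -0.26 over contractile members and 0.00 over widely expressed members, against 0.006 over all genes. As deviations from the vehicle means, contractile medians were -0.24, -0.18, -0.37 and -0.25 on SAG replicates 1 to 4, below those of all vehicle arrays (-0.01 to 0.11). The vehicle arrays are centred on their own means here, so this order of the arrays is no test of the difference. The contractile median was -0.11 without vehicle replicate 3, -0.17 with each array centred on its median and -0.42 with the genes that could be placed either way left out.

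The rise was that of Pdlim3, whose call ended without any 1 of the vehicle or SAG arrays or cyclopamine replicate 1 (limma adjusted p 0.0602 to 0.200). The largest negative differences were those of Synpo2 (-1.27 ± 0.25, limma adjusted p = 0.0506), Actg2 (-1.24 ± 0.54, 0.439) and Ppp1r14a. Synpo2 fell with SAG in the fits without SAG replicate 1 (limma adjusted p = 0.0366), cyclopamine replicate 2 (0.0326) or cyclopamine replicate 3 (0.0407). It also fell with array weights (limma adjusted p = 0.016), with the 2 groups alone in the fit (0.0375) and without the dimmest 25% of probe sets (0.0467). Arrays of SAG and vehicle did not overlap for 7 of 38 members, where they did not overlap for 12.9% of all probe sets. Whether the 2 shares differ was not tested. The 7 were among the 24 contractile members: Pdlim3, which was higher, and Cnn1, Lmod1, Mylk, Ppp1r14a, Synpo2 and Pgm5, which were lower without passing. Duct epithelium markers had a median of -1.21 with SAG and fibroblast markers one of 0.16, and their part was not tested.

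Set directly against each other, the activated and inhibited cultures differed at 22 of 38 members, and at 11.3% of all probe sets. With SAG 21 members were higher than with cyclopamine, where 5.42% of all probe sets were, and 1, Pdlim5, was lower (-1.28 ± 0.16), where 5.92% of all probe sets were. The largest differences were those of Cnn1 (4.43 ± 0.19, 21.6-fold), Actg2 (4.30 ± 0.54), Myocd (3.97 ± 0.33, with the cyclopamine signal so low that the difference may be understated) and Pdlim3 (3.50 ± 0.17, 11.3-fold). In the contractile class 13 of 24 were higher with SAG (median 0.85), and in the widely expressed class 6 of 11 (median 0.54). Synpo2 (0.76 ± 0.25), Des (-0.66 ± 0.27), Ppp1r14a (-0.48 ± 0.29), Lmod1 (-0.09 ± 0.13) and Pgm5 (-0.08 ± 0.19) did not pass, though Synpo2 did without cyclopamine replicate 3 (0.98, limma adjusted p = 0.0452). Without cyclopamine replicate 2, Mylk (1.11, limma adjusted p = 0.000538 against 0.328 with all arrays) and Actn1 (0.74, 0.00672 against 0.0755) passed. The call of Flna (0.54 ± 0.13, limma adjusted p = 0.0226) ended without SAG replicate 1 or 4 or cyclopamine replicate 1 or 2 (0.0524 to 0.0788), and that of Srf without cyclopamine replicate 1 (0.0501). This comparison uses the same treated arrays as those against vehicle and is not independent of them.

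Other genes of smooth muscle function and of non-muscle actomyosin were taken from 5 lists of 50 genes, 42 of them measured. With cyclopamine 10 of 42 fell by limma, where 2.95% of all probe sets fell. In the same comparison 0 rose, where 2.17% of all probe sets rose, and 32 did not pass. At an unadjusted p under 0.05, 1 was higher and 14 lower, as were 1990 and 2199 of the 22206 probe sets. With SAG 0 passed by limma, where 0.730% of all probe sets did. At an unadjusted p under 0.05, 3 were higher and 4 lower with SAG, as were 1165 and 1224 of the 22206 probe sets. Tgfb1i1, or Hic-5, a LIM protein of focal adhesions, fell 5.63-fold with cyclopamine (-2.49 ± 0.16). Its signals were 12.83, 12.79 and 12.96 with vehicle, 12.76, 12.73, 12.73 and 12.22 with SAG, and 10.43, 10.28 and 10.39 with cyclopamine. All cyclopamine arrays lay below the others, and the SAG arrays lay below the vehicle arrays without passing (-0.25 ± 0.15). Cacnb2, a calcium channel subunit (-1.50 ± 0.27), Pde5a, the phosphodiesterase that breaks down cGMP (-1.14 ± 0.19), and Sgcd, delta-sarcoglycan of the dystrophin complex (-1.05 ± 0.16), fell as well. These 4 calls held with any single array left out. The calls of Cav1, caveolin 1 (-1.55 ± 0.29), Mrvi1 (-1.41 ± 0.31), Fhl2 (-1.14 ± 0.28), Fermt2 (-0.93 ± 0.20), Cnn3 (-0.50 ± 0.12) and Sgce (-0.48 ± 0.12) did not: that of Cav1 ended without vehicle replicate 1 or 2, those of Mrvi1 and Fermt2 without any vehicle array or cyclopamine replicate 1 or 3, that of Fhl2 without any of these or SAG replicate 3 or 4, and those of Cnn3 and Sgce without any 1 of the 10 arrays (limma adjusted p 0.0503 to 0.142 over these fits). Among ion channels and calcium release genes 1 of 7 fell, among receptors and genes of cGMP relaxation 2 of 7, among sarcoglycan, caveola and integrin genes 3 of 10, among other contractile and LIM genes 3 of 9, and among genes of non-muscle actomyosin 1 of 9. Actb, the beta actin of all cells, was at -0.04 ± 0.12 with cyclopamine.

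Markers of other cell types were measured beside these genes. With cyclopamine, 2.95% of all probe sets fell and 2.17% rose. Of 12 striated muscle markers 1, Tnnt2, fell with cyclopamine (-1.32 ± 0.20, to a mean of 5.09), 0 rose and the list median was 0.10. The mean log2 signal of that list was 5.30 to 5.45 with vehicle, 5.13 to 5.55 with SAG and 5.20 to 5.42 with cyclopamine. Of 6 pericyte markers, which vessel-associated contractile cells share, 1 fell with cyclopamine, Cspg4 (-2.29 ± 0.27), and the mean log2 signal was 10.05 to 10.42 with vehicle, 10.03 to 10.43 with SAG and 8.55 to 9.74 with cyclopamine. Of 4 measured fibroblast markers 3 fell, Col1a1, Lum and Postn, with means of 16.01 to 16.15, 16.07 to 16.67 and 14.92 to 15.10 in the same order. Of 6 duct epithelium markers 2 rose, Pax2 and Pax8, with means of 11.04 to 11.90, 9.82 to 10.46 and 12.38 to 12.79. Lhx1 of that list was lower on every cyclopamine array than on any vehicle array, without passing (-0.9 ± 0.27, limma adjusted p = 0.0845). All 5 endothelial markers had negative differences with cyclopamine (-2.37 to -0.58), with mean log2 signals of 10.48 to 11.54, 11.21 to 11.84 and 8.91 to 10.57 in the same order. Among them 1 fell, Kdr, a call that ended without any 1 of the vehicle arrays or cyclopamine replicate 1 or 3 (limma adjusted p 0.0612 to 0.103), and among 4 macrophage markers 1 rose, Itgam, a call that ended in 7 of 10 left-out arrays (0.0501 to 0.129). The part of these cells in the result was not tested.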

How the data were processed

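Total RNA of 10 cultures was hybridised to Affymetrix arrays, 1 array a culture. The deposited value table holds log2 signals of 22206 probe sets; the scale was inferred from the values (2.95 to 18.7), and how they were summarised and normalised is not stated in the labels. Of the probe sets, 19572 carry a gene symbol in the platform annotation and 2634 do not; for a gene with several, the brightest over all arrays was taken. All 3 groups were fitted together with limma 3.58.1 in R 4.3.3 (lmFit and eBayes, residual df 7, prior df 3.70), with two-sided p-values adjusted over all probe sets (Benjamini-Hochberg) and called below 0.05. Within-array differences of related genes were compared by exact permutation tests over arrays. The precision is limited by the number of arrays. The fit was tested on simulated data with normally distributed noise. Over the 3 comparisons it called 4 to 8% of log2 changes of 0.5, 53.3 to 61.3% of changes of 1 and 93.3 to 96% of changes of 2.

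The members and all gene lists were chosen with earlier results of these data known. Every array's value is given for a set of members named by rule (the main actins, calponins, tropomyosins, myosins and regulators, both genes of each related pair, and the member of smallest p in each role and comparison); those of Lmod1, Mylk, Ppp1r14a, Pdlim5, Synpo2, Des, Vcl and Casq2 were added after their values were seen where the rule did not name them. Alternatives were a second quantile normalisation, centring on array medians, a filter on dim probe sets, 2-group fits, weighted arrays, a block for the replicate number, the mean over probe sets, other class membership and leaving out each array. A fit without cyclopamine replicate 2 and SAG replicate 1 was chosen after seeing the data. One further gene list is not reported here.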

Additional observations from a re-analysis of the deposited data

Results flagged for a closer look

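In the 4 SAG cultures, 3 of 38 members had 1 array far from the others, meaning that its gap to the nearest array was a larger share of the group's whole range than Dixon's 95% critical value for 4 samples. Chance alone gives such an array in about 1 of 20 groups. Mylk, myosin light chain kinase, was highest on SAG replicate 2, at a log2 signal of 14.14. Ppp1r12a, the phosphatase targeting subunit, was lowest on SAG replicate 1, at 13.40. Pdlim5 was highest on SAG replicate 1, at 11.53. The vehicle and cyclopamine groups have 3 arrays each and were not examined in this way.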

How the results depend on the processing

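Of 21 member calls between cyclopamine and vehicle, 15 held with any single array left out, as did 20 of 22 between SAG and cyclopamine and 0 of 1 between SAG and vehicle. The number of members called between SAG and vehicle was 1, and 0 to 3 with an array left out. It was 2 without the dimmest 25% of probe sets, with the 2 groups alone, with array weights and without cyclopamine replicate 2 and SAG replicate 1 together. The contractile median for SAG against vehicle (-0.26) was -0.17 after centring each array, -0.42 without the genes that could be placed either way and -0.32 to -0.11 with an array left out, and the widely expressed median (0.00) was 0.09 after centring. The contractile median for cyclopamine (-1.06) was -1.15 with array weights, -0.87 without those genes, -1.32 without cyclopamine replicate 2 and SAG replicate 1 and -1.32 to -1.0 with an array left out. For SAG against cyclopamine it was 0.85, and 0.59 without those genes, 1.09 without both of those arrays and 0.81 to 1.06 with an array left out, and the widely expressed median (0.54) was 0.59 without both of those arrays and 0.50 to 0.58 with an array left out. The SAG difference of Ppp1r12b minus Ppp1r12a (-0.16) ranged from -0.40 to 0.09 and changed sign without vehicle replicate 3. The cause of these shifts was not tested.

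Residuals of same-numbered arrays of different groups correlated at -0.19 to 0.24, and those of differently numbered arrays at -0.22 to 0.23. With so few arrays a group, these values cannot decide whether the replicate numbers pair the arrays. With the replicate number as a block, 0 members were called between SAG and vehicle, 19 between cyclopamine and vehicle and 20 between SAG and cyclopamine. With 3 or 4 arrays a group, small differences may have been missed.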
